A study of Mus musculus with 34 samples.

Results

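The regions described here are stretches of mouse chromatin that carried histone H3 trimethylated at lysine 9 (H3K9me3) in embryonic stem cell lines of one inbred strain and almost none in those of another. They were chosen from a list of 248336 regions counted in every library, of which 229016 lie off chromosomes 13, X and Y. A region was kept when its H3K9me3 reads summed to 45 or more over 3 C57BL/6J (B6) lines and to 6 or fewer over 3 DBA/2J (D2) lines. This left 94 regions out of the 17474 that reached 45 B6 reads, and all 94 are accounted for below.

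The study profiled H3K9me3 and H3K27ac by chromatin immunoprecipitation and sequencing in mouse embryonic stem cells grown with serum, LIF and the inhibitors PD0325901 and CHIR99021. One set of libraries came from separate lines, B6 4-1, 4-4 and 5-1 and D2 2-9, 5-5 and 203, with 1 library each per mark. The other set held repeated libraries of 1 line for each of 4 genotypes. These were the B6 5-1 line, the D2 5-5 line, the B6-13D2 line QJ 6-1, which carries a D2 segment of chromosome 13 on the B6 background, and the D2-13B6 line XE 2-4, which carries a B6 segment of chromosome 13 on the D2 background. The labels call the repeats technical replicates, so tests among them compare single lines and their spread is technical. In such bulk libraries fewer cells with a mark and less of it per cell cannot be told apart. The congenic strains are B6.D2-(rs30079041-rs51756099)/Bakr and D2.B6-(rs29224292-rs13469455)/Bakr on the sample labels; the series text ends the second segment at rs51756099. None of the 94 regions lies on chromosome 13, and a difference between a congenic line and its background strain is therefore a difference away from the exchanged segment.

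H3K9me3 is a mark of silenced chromatin. In embryonic stem cells it is laid down largely by SETDB1, which TRIM28 brings to DNA through KRAB zinc finger proteins, and it covers many endogenous retroviruses and other repeats. H3K27ac is found at active promoters and enhancers, and the lysine that carries it in active chromatin can also be methylated in silent chromatin. Many KRAB zinc finger genes sit in clusters on mouse chromosome 13.

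Reference sequence is shown for the regions on which the results turn, from the middle of each region in GRCm38.p6 on the forward strand, with CpG dinucleotides in capitals. The first had the highest B6 level of all 94 regions, on a scale that does not allow for width, and was the widest of them at 1925 bp. It is intergenic at chr10:69035491-69037415, near Rhobtb1, and the stretch shown is chr10:69036303-69036602.
Rhobtb1 neighbour: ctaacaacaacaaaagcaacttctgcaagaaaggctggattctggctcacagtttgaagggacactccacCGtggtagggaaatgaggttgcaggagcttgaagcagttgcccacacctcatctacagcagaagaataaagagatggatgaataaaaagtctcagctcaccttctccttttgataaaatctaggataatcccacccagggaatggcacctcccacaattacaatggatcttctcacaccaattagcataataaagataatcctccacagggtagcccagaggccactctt
A region in an intron of Skint4, at chr4:112156019-112157050, stands for those with almost no D2 reads of either mark (shown, chr4:112156385-112156684).
Skint4 intron: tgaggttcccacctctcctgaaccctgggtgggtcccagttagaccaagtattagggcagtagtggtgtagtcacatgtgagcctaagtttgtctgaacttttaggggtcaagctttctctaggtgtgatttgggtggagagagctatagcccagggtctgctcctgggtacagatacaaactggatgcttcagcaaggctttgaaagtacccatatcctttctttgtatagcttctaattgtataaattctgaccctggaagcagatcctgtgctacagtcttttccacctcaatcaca
Regions in introns of Plekha7, at chr7:116214993-116215598, and of Eipr1, at chr12:28770990-28771311, differed most in H3K9me3 between B6-13D2 and B6 among those that passed the test given below (shown, chr7:116215146-116215445 and chr12:28771001-28771300).
Plekha7 intron: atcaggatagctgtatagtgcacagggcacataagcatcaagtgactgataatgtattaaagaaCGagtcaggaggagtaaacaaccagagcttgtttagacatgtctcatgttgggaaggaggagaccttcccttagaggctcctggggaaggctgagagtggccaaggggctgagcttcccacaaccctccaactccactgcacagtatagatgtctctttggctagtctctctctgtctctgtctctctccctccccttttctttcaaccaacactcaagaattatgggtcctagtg
Eipr1 intron: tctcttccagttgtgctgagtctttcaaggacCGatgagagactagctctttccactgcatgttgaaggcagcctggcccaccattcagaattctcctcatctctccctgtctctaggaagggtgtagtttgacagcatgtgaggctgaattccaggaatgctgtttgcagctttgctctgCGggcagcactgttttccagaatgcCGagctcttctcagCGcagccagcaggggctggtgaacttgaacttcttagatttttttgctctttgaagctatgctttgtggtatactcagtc
Regions in introns of Cdan1, at chr2:120823761-120824233, and of Spock3, at chr8:63169815-63170602, differed in H3K27ac with the segment on both backgrounds (shown, chr2:120823847-120824146 and chr8:63170059-63170358).
Cdan1 intron: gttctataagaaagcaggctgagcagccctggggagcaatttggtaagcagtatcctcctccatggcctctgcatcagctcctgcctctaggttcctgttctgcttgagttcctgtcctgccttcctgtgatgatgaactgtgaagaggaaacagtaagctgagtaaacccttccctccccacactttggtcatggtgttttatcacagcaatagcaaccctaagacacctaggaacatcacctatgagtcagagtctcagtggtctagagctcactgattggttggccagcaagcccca
Spock3 intron: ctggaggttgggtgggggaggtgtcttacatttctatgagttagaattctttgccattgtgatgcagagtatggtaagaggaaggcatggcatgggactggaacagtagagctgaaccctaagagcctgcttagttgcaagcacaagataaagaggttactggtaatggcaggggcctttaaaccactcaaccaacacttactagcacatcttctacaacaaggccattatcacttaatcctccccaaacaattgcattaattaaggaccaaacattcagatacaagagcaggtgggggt
CpG dinucleotides numbered 1 in the Rhobtb1 neighbour and in the Plekha7 stretch, 4 in the Eipr1 stretch and 0 in the other 3.

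The values that chose the regions are given as a description, with no test. H3K9me3 counts in the B6 lines ran from 11 to 100 (median 22) in line 4-1, from 9 to 68 (median 20) in line 4-4 and from 11 to 77 (median 20) in line 5-1. In the D2 lines the same regions held 0 to 4 reads (median 1) in line 2-9, 0 to 5 (median 2) in line 5-5 and 0 to 4 (median 1) in line 203. Every B6 library was above every D2 library at each of the regions. As CPM, read counts scaled to a common effective library size but not to region width, the medians over the regions were 20.4 in B6 and 1.04 in D2. The D2 libraries were not the shallower ones: the B6 lines had 1487862 to 1687002 reads in regions and the D2 lines 1981703 to 2559262. Many regions sat near the edge of the rule. Of the 94, 16 had a B6 sum of 45 to 49 and 22 had a D2 sum of 6, while 1 had no D2 read at all. Just outside, 22 regions had a B6 sum of 40 to 44 and 81 had a D2 sum of 7 to 9. At the B6 edge stood a region over a coding exon of Nnat, with a B6 sum of 45 and a D2 sum of 6, and one over a coding exon of Pank4, with 45 and 5; the nearest outside, both on chromosome 1, had 44 with 6 and 44 with 5. At the D2 edge stood regions in introns of Serpinb2 and Pno1, with D2 sums of 6, and the nearest outside had 7.

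Depth ran from 1538145 to 2185977 reads in regions in the 10 repeated H3K9me3 libraries, from 8735674 to 11543469 in the 12 repeated H3K27ac libraries and from 15444270 to 18272793 in the 6 H3K27ac libraries of separate lines. One line had a library that stood apart. Replicate 1 of D2-13B6 differed from the other D2-13B6 libraries by more than their sampling noise, with a chi-square per degree of freedom of 2.46 and 2.47 for H3K9me3 and 2.81 and 2.79 for H3K27ac, against 1.21 and 0.905 between replicates 2 and 3. For H3K27ac, 4 pairs of libraries differed by less than sampling noise and were summed and counted as 1 sample, which left n = 2 per line. H3K27ac within 1 kb of the start sites was highest over the stem cell list. Of its 10 markers 9 reached 10 CPM in every line, Esrrb was below 1 CPM in every line, and the summed level was 1036 to 1333 CPM. No marker of endoderm, mesoderm, ectoderm, trophectoderm or fibroblast feeders reached 10 CPM in every line, with summed levels of 6.16 to 30.7 CPM. In some lines 2 trophectoderm markers did. Tfap2c had 14.6 CPM in B6-13D2, 12.1 CPM in D2 and 11.0 CPM in D2-13B6, and Cdx2 had 10.7 CPM in D2 and 15.9 CPM in D2-13B6. Only 2 of the 5 endoderm genes had a region at their start. Of 20 genes for H3K9me3 factors, which include Kdm4 demethylases beside writers and readers, 16 had 10 CPM or more in every line. The others were Trim28, at 2.38 to 7.22 CPM, Suv39h2, at 9.06 CPM in B6, and Atf7ip and Kdm4c, which had no region at their starts.

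The same regions were next followed in the repeated libraries, which had no part in the choice, although 2 of their 4 lines, B6 5-1 and D2 5-5, are among the 6 lines it used. They were different preparations: a repeated library differed from the separate-line libraries of its strain by a chi-square per degree of freedom of 3.73 to 5.97. All 94 regions had a higher mean H3K9me3 level in B6 than in D2. The median level over the regions was 13.8 CPM in B6, 10.5 CPM in B6-13D2, 2.06 CPM in D2 and 2.87 CPM in D2-13B6. The 5 libraries on the B6 background were thus well above the 5 on the D2 background, and the gap was narrower than in the lines used for the choice. At 72 of the 94 regions every library on the B6 background exceeded every library on the D2 background. Of the 88 regions with enough reads to be tested this held for 70, against 8.87% of all tested regions off chromosomes 13, X and Y and 30.2% of those with 45 or more B6 reads.

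**Figure D1:**
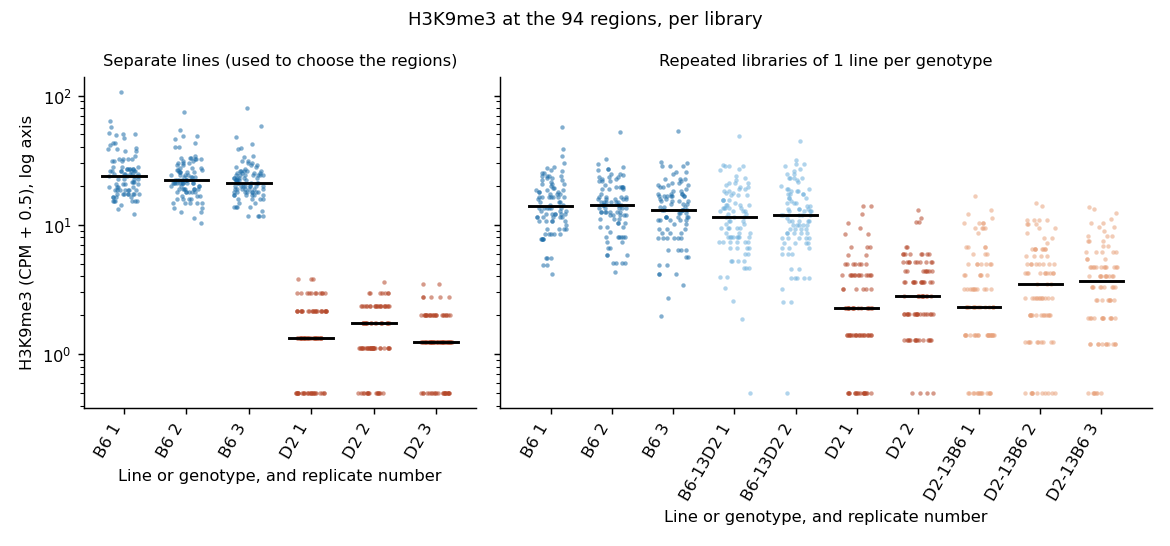
H3K9me3 level of the 94 regions in each library, in CPM plus 0.5 on a log axis; each point is 1 region and each black line the median over regions, with the separate lines on the left and the repeated libraries on the right. Medians on the B6 background lie above those on the D2 background in both sets, with 10.5 CPM in B6-13D2 and 13.8 CPM in B6 against 2.87 CPM in D2-13B6 and 2.06 CPM in D2 among the repeated libraries.

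Differences between lines were tested with edgeR's quasi-likelihood F-test over all regions, with p-values adjusted by the Benjamini-Hochberg method over all regions tested (edgeR adjusted p) and a threshold of 0.05. Of the 94 regions, 88 had enough reads to be tested, and the other 6 had at most 11 reads in any repeated library. H3K9me3 was lower in D2 than in B6 at 74 of the 88 and higher at 0, with 84 at an unadjusted p under 0.05. At 36 of the 88 every D2 library held at most 3 reads. These passed the read filter through other lines, so a call of higher in D2 was not open to them. DESeq2's Wald test called 47 lower, out of 66 regions with an adjusted p. The background was 6.77% of all tested regions off chromosomes 13, X and Y called lower and 4.3% higher, and 24.6% and 2.08% of those with 45 or more B6 reads. The median log2 difference was -2.51, or -2.08 with the 36 regions at the counting floor (3 reads per library) set to their bound, against 0.04 over all tested regions and -0.54 over those with 45 or more B6 reads. At the other 14 tested regions the log2 difference was also negative, but did not pass the threshold.

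Single regions show the range. At the intergenic region near Rhobtb1, B6 libraries held 78, 68 and 71 reads, B6-13D2 libraries 70 and 65, D2 libraries 7 and 4, and D2-13B6 libraries 5, 2 and 4. The mean level was 53.6 ± 2.69 CPM (SD, n = 3) in B6 and 4.68 ± 2.24 CPM (n = 2) in D2, a log2 difference of -3.52 ± 0.35 (SE, edgeR adjusted p = 3.07e-16). Low levels were thus shared by both lines on the D2 background, and the groups did not overlap. The region over a coding exon of Atp6v1d, a subunit of the vacuolar proton pump, had 41, 29 and 30 reads in B6, 20 and 33 in B6-13D2, 0 and 1 in D2, and 0, 2 and 5 in D2-13B6. With 100 summed reads in B6 against 1 in D2, the B6 level was 59.5 times the D2 level (95% counting interval 10.4 to 2371; counting error only), and the edgeR adjusted p was 4.21e-12. At the intergenic region near Olfr693, an olfactory receptor gene, the B6 level was 17.8 ± 1.44 CPM (n = 3) and the D2 level 2.89 ± 0.29 CPM (n = 2), a log2 difference of -2.57 ± 0.48 (edgeR adjusted p = 1.43e-05). In the separate lines this region had the second highest B6 level of the 94, at 58.0 CPM.

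Regions over coding exons were lower in D2 to different degrees. One over a Pxk exon, a gene for a phox-homology-domain protein, had 24, 25 and 23 reads in B6, 33 and 25 in B6-13D2, 0 and 2 in D2, and 1, 2 and 2 in D2-13B6. The region over a Ncbp3 exon, a cap-binding protein gene, had 22, 19 and 26 reads in B6, 7 and 23 in B6-13D2, 1 and 4 in D2, and 2, 8 and 3 in D2-13B6. Here the B6-13D2 and D2-13B6 libraries overlapped. They overlapped as well at exons of Golga3, a Golgi matrix protein gene, and of Nnat. The Golga3 exon gave a log2 difference between D2 and B6 of -2.41 ± 0.49 (edgeR adjusted p = 7.8e-05). At the first of 2 regions over coding exons of Pank4, a pantothenate kinase family gene, the difference was smaller. It had 38, 36 and 41 reads in B6 and 15 and 13 in D2, or -1.28 ± 0.31 on the log2 scale (edgeR adjusted p = 0.00146), although its D2 sum in the separate lines had been 4. Both Pank4 regions, and one in an intron of Ppat, lost the call between D2 and B6 when D2 replicate 2 was left out.

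With the chromosome 13 segment exchanged, few of the regions passed the test for H3K9me3. Between B6-13D2 and B6, 6 of the 88 tested regions were lower and 0 higher, with 21 at an unadjusted p under 0.05. DESeq2's Wald test called 1, out of 55 regions to which it gave an adjusted p. Among all tested regions off chromosomes 13, X and Y, 0.393% were called lower and 0.852% higher, and among those with 45 or more B6 reads the shares were 1.18% and 0.948%. The median log2 difference of the tested regions was -0.19, against -0.03 over all regions. Between D2-13B6 and D2, 1 region was higher and 0 lower (0 of 35 by DESeq2), with 7 at an unadjusted p under 0.05, where 0.398% of all tested regions were called higher and 1.36% lower, or 0.745% and 2.65% of those with 45 or more B6 reads. The median there was 0.23, or 0.16 with 23 regions at their floor bound. These 2 comparisons share no library.

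The region called in both was in an intron of Plekha7, which encodes a protein of epithelial adherens junctions. Its H3K9me3 reads were 16, 16 and 10 in B6, 0 and 5 in B6-13D2, 1 and 2 in D2, and 13, 5 and 13 in D2-13B6. The lines with a B6 segment on chromosome 13 were the high ones on either background, though the lowest D2-13B6 library and the higher B6-13D2 library both held 5 reads. Levels were 10.4 ± 2.63 CPM (n = 3) in B6 and 1.69 ± 2.39 CPM (n = 2) in B6-13D2, a log2 difference of -2.54 ± 0.59 (edgeR adjusted p = 0.00316). On the D2 background they were 1.22 ± 0.46 CPM (n = 2) in D2 and 8.19 ± 4.06 CPM (n = 3) in D2-13B6, a difference of 2.60 ± 0.72 (edgeR adjusted p = 0.0241). Since D2 held 3 reads in all, against 31 in D2-13B6, the ratio of 6.42 has a 95% counting interval of 2.00 to 32.8. The second of these calls was lost when D2-13B6 replicate 1, the library that stood apart, was left out, and also without D2-13B6 replicate 3, without D2 replicate 1 and without D2 replicate 2. The first was lost without B6-13D2 replicate 1, without B6 replicate 1 and without B6 replicate 2. H3K27ac at this region was 4.06 ± 0.36 CPM in B6, 2.64 ± 0.31 in B6-13D2, 4.22 ± 0.62 in D2 and 3.50 ± 0.07 in D2-13B6 (n = 2 each), and no contrast between lines passed the threshold in the repeated libraries.

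The largest difference between B6-13D2 and B6 by fitted value was in an intron of Eipr1, a gene for a partner of the EARP trafficking complex. Reads numbered 15, 20 and 15 in B6, 3 and 0 in B6-13D2, 2 and 2 in D2, and 11, 8 and 8 in D2-13B6. Both lines with a B6 segment were above both lines with a D2 segment in every library. B6-13D2 was lower than B6 by a fitted log2 difference of -3.48 ± 0.62 (edgeR adjusted p = 1.42e-05). With 50 summed reads in B6 against 3 in B6-13D2 the size is uncertain, the B6 level being 12.1 times the other with a 95% counting interval of 3.91 to 60.6. D2-13B6 against D2 gave 2.01 ± 0.67 (edgeR adjusted p = 0.102), which did not pass. H3K27ac was too low here to be tested, with at most 8 reads in any repeated library.

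The remaining 4 regions lower in B6-13D2 were of 2 kinds on the D2 background. An intron of Armc2, a gene needed for sperm flagella, had 22, 25 and 17 reads in B6 and 4 and 5 in B6-13D2, a log2 difference of -2.33 ± 0.44 (edgeR adjusted p = 6.87e-05), and 4 and 7 in D2 against 12, 8 and 10 in D2-13B6. Its D2-13B6 libraries were all above its D2 libraries, but the difference of 0.75 ± 0.50 did not pass. An intron of Ppat, which encodes the first enzyme of purine synthesis, showed the same order, with 22, 32 and 34 reads in B6, 16 and 13 in B6-13D2, 9 and 7 in D2, and 10, 13 and 19 in D2-13B6. Its difference between B6-13D2 and B6 was -1.13 ± 0.32 (edgeR adjusted p = 0.0345). At the other 2 the D2 and D2-13B6 libraries overlapped. An intergenic region near Txnrd1, the cytosolic thioredoxin reductase gene, had 31, 18 and 17 reads in B6 and 5 and 6 in B6-13D2, and one over a coding exon of Nnat, an imprinted gene, had 26, 20 and 27 in B6 and 2 and 11 in B6-13D2. Their log2 differences were -2.09 ± 0.43 (edgeR adjusted p = 0.000341) and -2.00 ± 0.40 (edgeR adjusted p = 0.000223). Without B6-13D2 replicate 1, 2 of the 6 regions kept the call, those in Eipr1 and Armc2. A test of whether the segment contrast differed between backgrounds called 0 of the 88 regions for H3K9me3, with 7 at an unadjusted p under 0.05, where 0.321% of all tested regions off chromosomes 13, X and Y and 0.704% of those with 45 or more B6 reads were called.

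**Figure D2:**
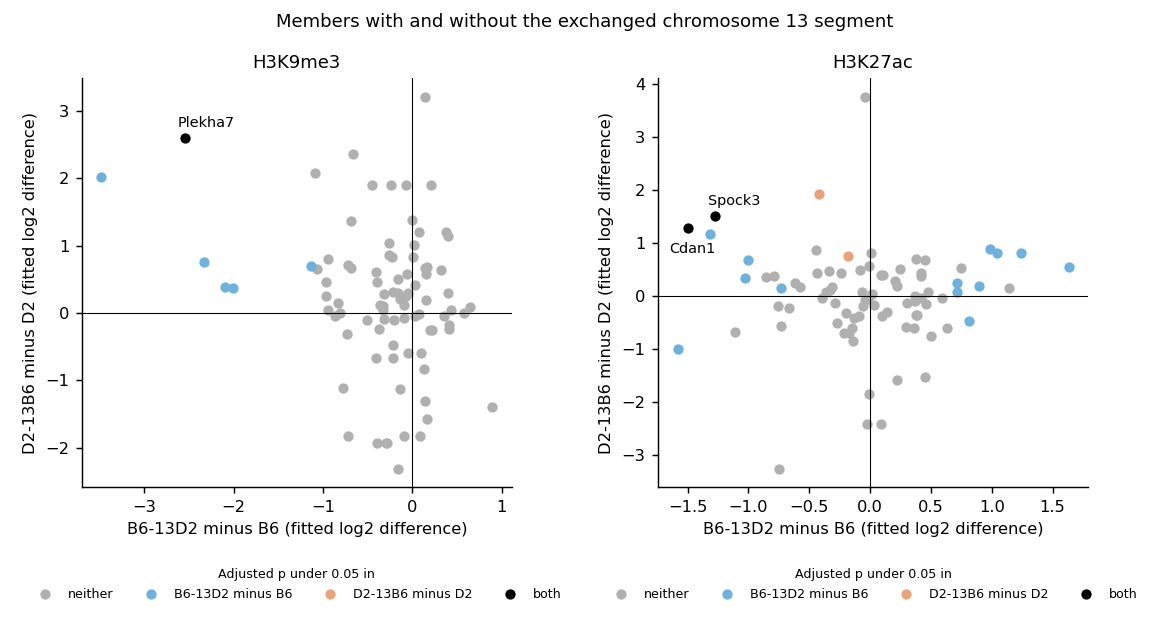
Fitted log2 differences of the tested regions between B6-13D2 and B6 (horizontal) and between D2-13B6 and D2 (vertical), for H3K9me3 on the left and H3K27ac on the right; colours mark an edgeR adjusted p under 0.05 in 1 or both comparisons. Plekha7 is the region called in both for H3K9me3 (-2.54 and 2.60), and Cdan1 and Spock3 are those called in both for H3K27ac; each of the 3 lies in the upper left, lower with a D2 segment and higher with a B6 segment.

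H3K27ac was counted over the same 94 regions, of which 84 had enough reads to be tested. Compared with B6, D2 was higher at 17 and lower at 34, where 14.5% of all tested regions off chromosomes 13, X and Y were called higher and 13.5% lower, and 20.8% and 23% of those with 45 or more B6 reads. By DESeq2's Wald test 11 were higher and 21 lower, out of 68 with an adjusted p. The median log2 difference was -0.37 (-0.05 over all tested regions). Of the 66 regions that were lower in H3K9me3 in D2 and also tested for H3K27ac, 17 were higher in H3K27ac, 24 were lower and 25 did not pass the threshold. Among all regions with 45 or more B6 reads and lower H3K9me3 in D2, 26.9% were higher in H3K27ac and 30% lower. The number of higher regions among the 94 was thus near the background. Each marker list of the cell type check was also higher in D2 than in B6 in summed H3K27ac, from 1036 to 1275 CPM for stem cells, from 10.1 to 28.1 CPM for fibroblast feeders and from 15.4 to 26.7 CPM for trophectoderm, and 2 of the 6 feeder genes had no region; their part in these differences was not tested.

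Reads from D2 were nearly lacking in both marks at part of the regions. With 10 summed D2 reads over the 3 repeated H3K27ac libraries taken as a sign that D2 reads align, 70 regions had them and 24 did not, and 3 of the 24 had no D2 H3K27ac read. This split uses the D2 level itself and takes regions low in D2 out of the 70, so the H3K27ac values of both classes are a description. Their median H3K27ac level was 1.28 CPM in B6, 1.52 CPM in B6-13D2, 0.0846 CPM in D2 and 0.104 CPM in D2-13B6, and 23 of the 24 had at most 5 reads in every D2-13B6 library. The 70 other regions had medians of 1.38, 1.36, 1.53 and 1.56 CPM in the same order. Among these 70, 65 were tested, and 17 were higher and 15 lower in D2 than in B6, with a median log2 difference of 0.29. H3K9me3 was lower in D2 at 20 of the 23 tested regions with few D2 reads (median -3.53) and at 54 of the 65 tested regions with D2 reads (median -2.05). No input or genomic DNA library was used here, so whether the 24 regions lack both marks in D2 or lack sequence to which D2 reads align was not tested.

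**Figure D3:**
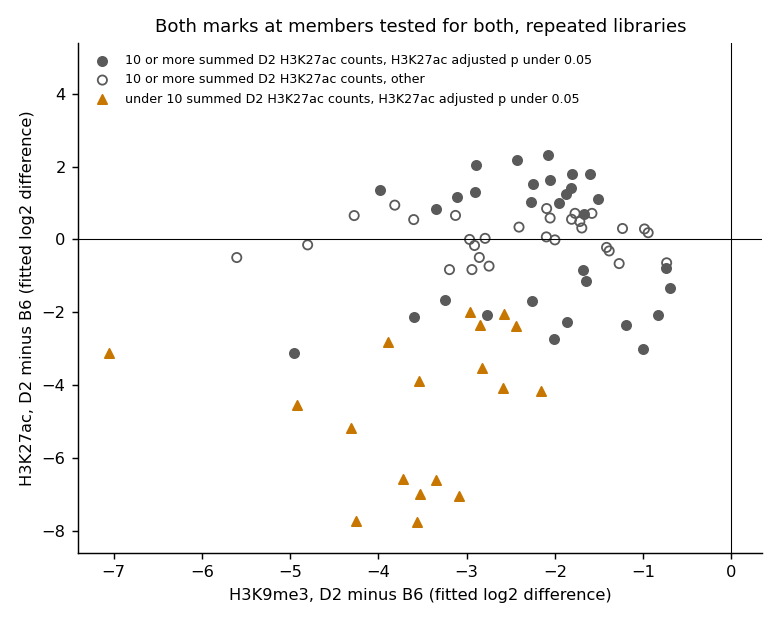
Fitted log2 difference between D2 and B6 in H3K9me3 (horizontal) and H3K27ac (vertical) in the repeated libraries, 1 point for each of the 79 regions tested for both; filled points have an H3K27ac edgeR adjusted p under 0.05, and triangles are regions with under 10 summed D2 H3K27ac reads. All points lie left of 0 for H3K9me3, the triangles lie low for H3K27ac by construction, and the circles, from which those regions were taken out, lie on both sides of 0.

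Of the 24 regions with few D2 reads, 8 were on chromosome 4 and 6 of these lay in or nearest to genes of the Skint family, which encode immunoglobulin-like proteins of skin and thymus. Skint genes accounted for 6.38% of the 94 regions, against 0.160% of the regions with 45 or more B6 reads and 0.0319% of all regions off chromosomes 13, X and Y. In the Skint4 intron shown above, H3K27ac reads were 94, 86 and 99 in B6, 108, 106 and 108 in B6-13D2, 0, 0 and 1 in D2, and 1, 1 and 0 in D2-13B6. With 279 summed reads in B6 against 1 in D2, the B6 level was 265.7 times the D2 level, with a 95% counting interval from 47.3. H3K9me3 there was 28, 35 and 40 reads in B6 and 1 and 4 in D2, so both marks were counted in B6 and nearly lacking in D2. The intergenic region near Skint9 had 173 H3K27ac reads in B6 against 1 in D2, and the one near Skint6 had 128 against 1. The Skint6 neighbour also differed between the 2 lines on the B6 background, with 38, 50 and 40 H3K27ac reads in B6 and 103, 99 and 94 in B6-13D2, a log2 difference of 1.04 ± 0.21 (edgeR adjusted p = 0.000486). An intergenic region whose nearest protein-coding gene is Gm12887, also on chromosome 4, had 16, 22 and 15 reads in B6 and 0 in each D2 library. Set against a floor of 3 reads per library, it was at least 5.57-fold lower in D2.

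Outside chromosome 4, the Rhobtb1 neighbour had 277, 297 and 275 H3K27ac reads in B6, 294, 283 and 293 in B6-13D2, 2, 2 and 2 in D2, and 2, 2 and 0 in D2-13B6. It carried the highest H3K27ac level of the 94 in B6, 29.8 ± 1.43 CPM (n = 2), as well as the highest H3K9me3 level. It was also the widest of the 94, at 1925 bp, and CPM is not scaled to width. The region over a coding exon of Mtmr10, a myotubularin-related gene, had 64, 87 and 78 reads in B6 and 2, 5 and 2 in D2, a log2 difference of -4.54 ± 0.35 (edgeR adjusted p = 1.69e-14). In the repeated libraries D2 reads were few at both of these regions in both marks. In the separate lines the H3K27ac interval over the Rhobtb1 neighbour, which also runs beyond it, held 558, 445 and 450 reads in B6 and 152, 190 and 156 in D2, so D2 reads were counted in that wider stretch. The interval over the Mtmr10 exon held 63, 52 and 64 reads in B6 and 5, 8 and 6 in D2.

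At the 17 regions where H3K27ac was higher in D2, the D2 level ran from 1.43 CPM in an intron of Efl1 to 9.38 CPM at an intergenic region near Lcor, which had 5.91 CPM in B6. The largest difference was in the Cdan1 intron, in the gene for codanin-1, which is mutated in a congenital anaemia. It had 10, 11 and 5 reads in B6, 5, 3 and 2 in B6-13D2, 45, 34 and 42 in D2, and 94, 115 and 100 in D2-13B6. The level was 0.806 ± 0.348 CPM in B6 and 4.35 ± 0.69 CPM in D2 (n = 2 each), a log2 difference of 2.31 ± 0.30 (edgeR adjusted p = 5.48e-08). Next were 2 regions of 1 locus on chromosome 7, one over a non-coding exon of 4933406J10Rik and one in an intron of Efl1, a ribosome-assembly GTPase gene. The first had 3, 4 and 5 reads in B6 and 18, 16 and 18 in D2, a difference of 2.19 ± 0.42 (edgeR adjusted p = 6.26e-05), and the second 4, 2 and 4 against 14, 12 and 13, a difference of 2.03 ± 0.50 (edgeR adjusted p = 0.00151). A Camk1d intron, in a calmodulin-dependent kinase gene, had 9, 6 and 6 reads in B6 and 23, 23 and 22 in D2, a difference of 1.80 ± 0.36 (edgeR adjusted p = 0.000121). In none of these 4 did a B6 library reach the lowest D2 library.

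H3K27ac in the separate lines, made with another antibody and counted over its own wider regions, covered 48 of the 94 regions through 42 distinct intervals. D2 was higher than B6 at 29 and lower at 17 of the 48, against 24.3% and 25.1% of all tested intervals off chromosomes 13, X and Y, and the median log2 difference was 0.68. All 28 regions that were called in the repeated libraries and had an interval here were also called here in the same direction, 12 higher and 16 lower in D2. Nearly all of the 48 were called here, so the second call alone says little. The 28 are not all separate intervals, since both Arhgap21 regions share 1, and an interval can hold mostly sequence outside the region. Of the D2 and B6 lines compared, 5-5 and 5-1 occur in both sets, but no library does. The interval over the Cdan1 intron had 58, 42 and 56 reads in the B6 lines and 350, 384 and 335 in the D2 lines, a log2 difference of 2.72 ± 0.12 (edgeR adjusted p = 6.03e-26). A further 17 regions were higher in D2 in the separate lines without a call in the repeated libraries. One was the Pxk exon, with 111, 106 and 103 reads in B6 and 200, 264 and 220 in D2, a difference of 1.04 ± 0.11 (edgeR adjusted p = 5.06e-11); another was the Nnat exon, at 0.75 ± 0.10 (edgeR adjusted p = 2.22e-08).

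With the chromosome 13 segment exchanged, H3K27ac differed at 15 of the 84 tested regions on the B6 background, 8 higher and 7 lower in B6-13D2 than in B6. DESeq2's Wald test called 3, 2 higher and 1 lower, out of 43 regions to which it gave an adjusted p. All tested regions off chromosomes 13, X and Y had 7.3% called higher and 5.4% lower, and those with 45 or more B6 reads 14.3% and 11.1%. With library totals in place of TMM scaling the split was 4 higher and 10 lower. On the D2 background 4 regions were higher and 0 lower in D2-13B6 than in D2, against 5.13% and 1.19% of all tested regions and 15% and 3.06% of those with 45 or more B6 reads. With library totals the counts were 4 and 2. The count on the B6 background was 7 without B6-13D2 replicate 2 and 6 without B6 replicate 2. On the D2 background it was 5 without D2-13B6 replicate 1. The test of whether the contrast differed between backgrounds called 2 of the 84, where 5.25% of all tested regions off chromosomes 13, X and Y and 12.7% of those with 45 or more B6 reads were called.

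Of these, 2 regions were called on both backgrounds, each lower in B6-13D2 than in B6 and higher in D2-13B6 than in D2, and 0 regions were called on both in the opposite sense. In the Cdan1 intron the differences were -1.50 ± 0.50 (edgeR adjusted p = 0.0389) and 1.29 ± 0.21 (edgeR adjusted p = 9.22e-06). D2-13B6 thus stood above D2, and D2 above both lines on the B6 background. The first of these calls was lost without B6-13D2 replicate 2 or 3 and without B6 replicate 1 or 2. The second was in the Spock3 intron, in a gene for a secreted proteoglycan of the testican family, named after its values were seen. It had 87, 82 and 83 reads in B6, 42, 38 and 38 in B6-13D2, 17, 14 and 4 in D2, and 35, 37 and 33 in D2-13B6. The 2 congenic lines stood between the parental lines, at 3.62 ± 0.15 CPM in B6-13D2 and 3.72 ± 0.23 CPM in D2-13B6 against 8.89 ± 0.58 CPM in B6 and 1.38 ± 0.30 CPM in D2 (n = 2 each). The differences were -1.27 ± 0.20 (edgeR adjusted p = 9.13e-06) and 1.51 ± 0.28 (edgeR adjusted p = 0.000159). H3K9me3 at the Spock3 region had too few reads to be tested in the repeated libraries. The other 2 regions higher in D2-13B6 were a second one in Cdan1, with 13, 15 and 13 reads in D2 and 51, 61 and 53 in D2-13B6, and one in an intron of the non-coding gene Scpep1os, with 52, 38 and 38 against 79, 66 and 76. The last lies on chromosome 11, where the median log2 difference between D2-13B6 and D2 over all tested regions was 0.29 for H3K27ac, against 0.75 at this region. The median of that chromosome was 0.49 for H3K9me3, and those of the other autosomes apart from 13 ran from -0.05 to 0.04 for H3K27ac and from -0.06 to 0.04 for H3K9me3. What the chromosome-wide shift contributes to this call was not tested, and 7 of the 94 regions lie on chromosome 11.

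**Figure D4:**
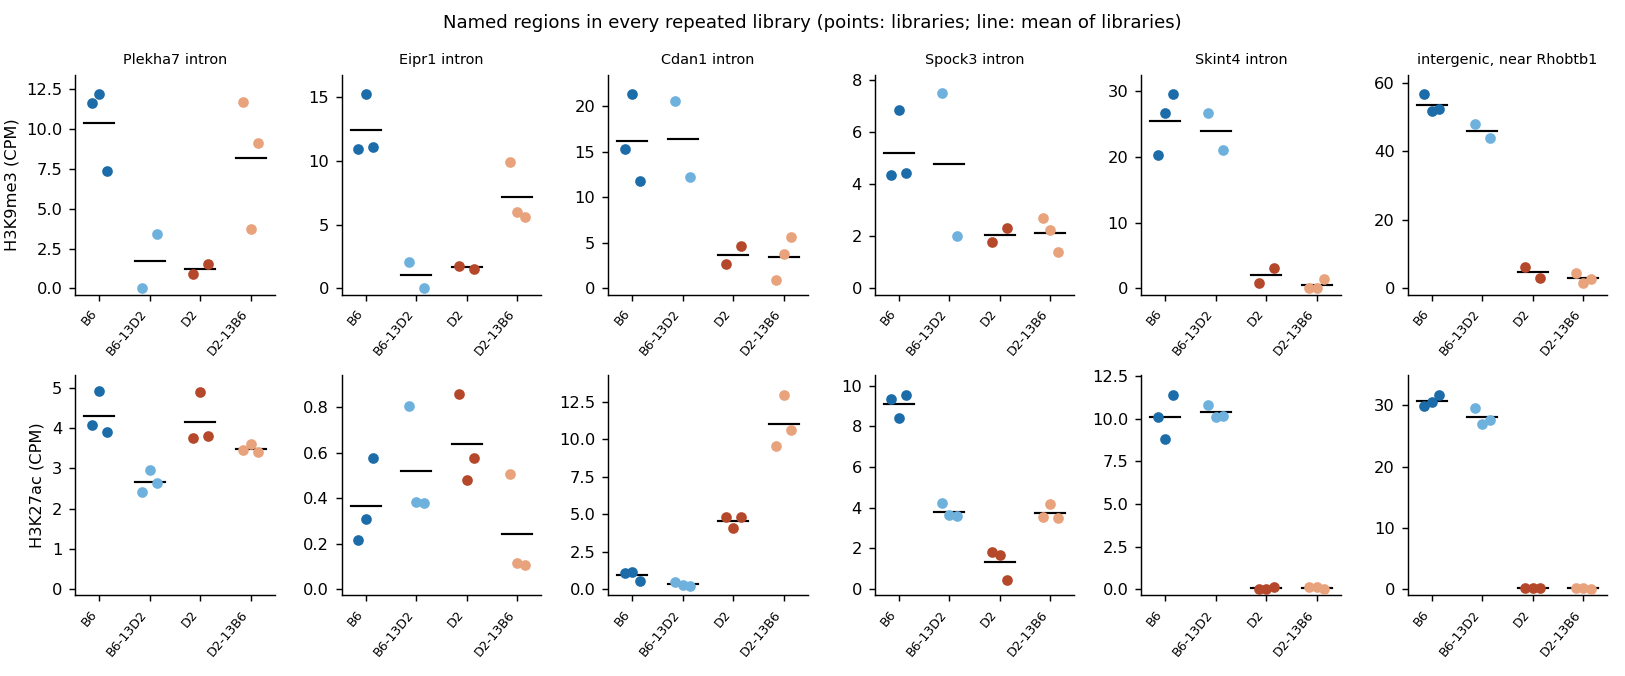
CPM of 6 named regions in every repeated library, H3K9me3 above and H3K27ac below, with 1 point per library, a line at their mean and separate linear axes; H3K27ac libraries are drawn singly, including those summed in the tests. Plekha7 and Eipr1 are high in B6 and D2-13B6 for H3K9me3, and Cdan1 is highest in D2-13B6 and Spock3 in B6 for H3K27ac. In the Skint4 intron and near Rhobtb1 both marks are far lower on the D2 background than on the B6 background. H3K9me3 near Rhobtb1 is still 4.68 CPM in D2 and 2.93 CPM in D2-13B6.

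The regions were narrow and scattered. Widths ran from 153 to 1925 bp with a median of 565 bp, and the regions fell on 15 chromosomes, with 17 on chromosome 2, 13 each on chromosomes 4 and 7, and none on 15, 16 or 18. Linked at 20 kb they formed 81 loci, 12 of which held 2 or 3 of the regions. By GENCODE M21, 42 were in introns, 37 intergenic, 9 over coding exons, 5 over non-coding exons and 1 over an untranslated region. The median distance to the nearest protein-coding start was 39.0 kb, and Nnat was the 1 gene with its start within 1 kb. Within 5 kb, 73 of the 94 had other regions of the list that were not among the 94. These 120 neighbours had median summed counts of 25.5 in the B6 lines and 10.5 in the D2 lines, and 92 had more B6 than D2 reads, against 21.3% of all regions off chromosomes 13, X and Y. Of the 70 neighbours with 20 or more B6 reads, 24 had at least 4 times as many B6 as D2 reads, against 2.24% of such regions. The neighbours had failed the rule and these are the counts it used, so their values are a description.

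Repeat content is given for the 2 classes of regions beside that of other regions. Soft-masked bases, which mark known repeats in the reference, made up a median of 28.5% of the 94 regions, 66.1% of the 24 with few D2 reads and 18.2% of the 70 others. The median was 51.7% over regions with 45 or more B6 reads and 15.6% over all regions off chromosomes 13, X and Y. Windows of 75 bases, the read length, were taken every 25 bases and looked up for exact matches in the reference. They bear on reads of the reference sequence and do not show whether a D2 read could be placed. None of the windows looked up recurred elsewhere in the genome in 76 of the 94 regions (80.9%), against 44.3% of the regions with 45 or more B6 reads and 84.9% of all regions. By class, a recurring window was found in 9 of the 24 regions with few D2 reads (37.5%) and in 9 of the 70 others (12.9%). A run of 1 kb or more of recurring windows within 5 kb was found beside 29 of the 94 regions, at 28 of the 70 regions with D2 reads (40%) and at 1 of the 24 others (4.17%), against 19.3% of the regions with 45 or more B6 reads. No test was made of these shares, since they follow from the choice of regions.

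**Figure D5:**
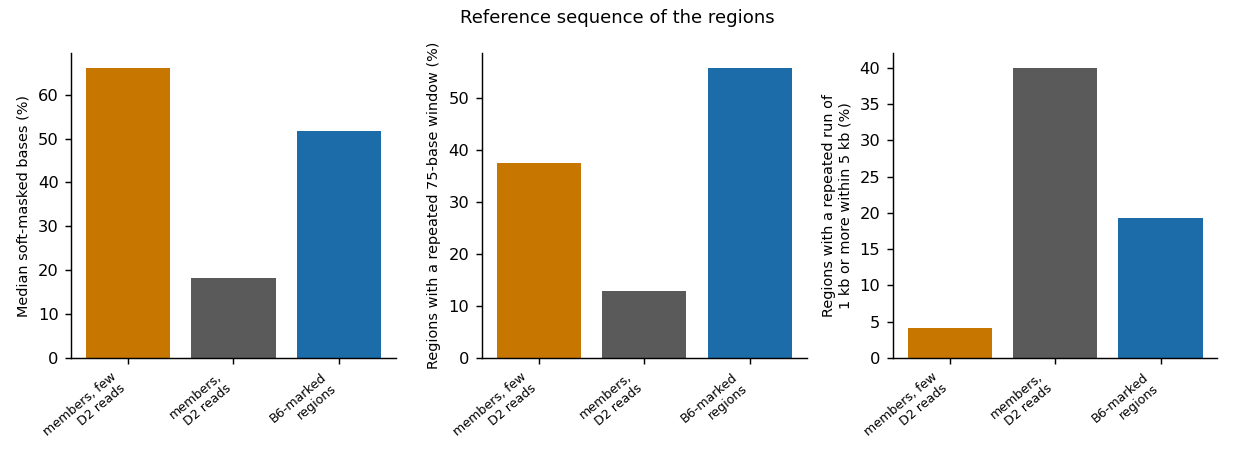
Reference sequence at the 24 regions with few D2 reads, the 70 others and the 17474 regions with 45 or more B6 reads: median share of soft-masked bases (left), share of regions with a 75-base window found elsewhere (middle) and share with a recurring run of 1 kb or more within 5 kb (right). Regions with few D2 reads are the most soft-masked (66.1%), and those with D2 reads most often have a long recurring run beside them (40%).

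Some of the regions resembled one another. In an all-against-all alignment 17 of the 94 matched another over at least 100 bp at 80% identity or more, in 5 groups. The closest were 2 intergenic regions on chromosome 7, chr7:31825413-31825645 and chr7:32554068-32554305, and a part of the Skint9 neighbour on chromosome 4 matched both. The first is printed whole on the forward strand. The second (chr7:32554072-32554304, forward strand) and the third (chr4:112378887-112379112, reverse strand) are its aligned stretches, with bases that differ from the first in capitals and gaps left out.
chr7 first: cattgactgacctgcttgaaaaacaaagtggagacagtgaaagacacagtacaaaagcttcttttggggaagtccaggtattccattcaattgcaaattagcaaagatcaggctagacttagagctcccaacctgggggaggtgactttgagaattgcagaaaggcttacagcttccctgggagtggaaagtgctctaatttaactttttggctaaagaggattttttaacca
chr7 second: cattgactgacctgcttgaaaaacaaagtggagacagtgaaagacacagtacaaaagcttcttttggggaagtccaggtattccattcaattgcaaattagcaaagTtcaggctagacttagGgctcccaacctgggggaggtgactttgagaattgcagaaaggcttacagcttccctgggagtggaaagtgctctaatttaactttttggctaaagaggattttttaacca
Skint9 neighbour: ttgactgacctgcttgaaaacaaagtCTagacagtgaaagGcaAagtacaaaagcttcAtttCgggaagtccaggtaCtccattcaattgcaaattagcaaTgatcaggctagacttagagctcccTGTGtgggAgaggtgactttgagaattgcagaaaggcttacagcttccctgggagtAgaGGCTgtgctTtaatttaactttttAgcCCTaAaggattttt
The second had 2 mismatches to the first over 233 bases (99.1% identity), and the third had 22 mismatches and 3 gap bases (89.0%). The first chromosome 7 region had 11, 12 and 8 H3K9me3 reads in B6 and 5 and 6 in D2, and the second 11, 9 and 10 against 3 and 7. Neither difference passed the threshold, with edgeR adjusted p = 0.407 and 0.419, and these 2 had the highest shares of recurring windows of the 94, 57.1% and 42.9%. The Skint9 neighbour, with no recurring window, had 32, 24 and 18 reads in B6 and 1 and 4 in D2, a log2 difference of -3.08 ± 0.51 (edgeR adjusted p = 9.22e-07). Reads of near-identical regions can be split between them in ways the counting notes do not state, so the levels of the chromosome 7 pair are uncertain.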

How the data were processed

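All 94 regions, the classes and the gene lists were chosen with earlier results of these data known. Raw read counts per region were deposited by the authors, and per the file headers duplicate reads had been removed. Per the submitters' processing notes the tools were Trimmomatic 0.39, HISAT2 2.2.1, MACS 1.4.2, bedtools 2.9.2 and edgeR, on mm10, with no role stated; how the regions were listed and multiply placed reads counted is not given in the sources used here. The labels' protocols give 75 bp reads, an H3K9me3 antibody from Active Motif, and H3K27ac antibodies from abcam for the separate lines and from Cell Signaling Technology for the repeats. Columns were matched to samples by library name, and 2 columns that matched none were not used. Starts were read as counted from 0, and 0 of 21 chromosomes had a region past its GRCm38.p6 end.

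The tests used edgeR version 4.0.16 under R 4.3.3 (TMM, filterByExpr, quasi-likelihood F-test, two-sided, Benjamini-Hochberg over all regions), with all repeated libraries of a mark in 1 fit. In each line, the difference within 1 pair of H3K27ac libraries was below sampling noise (chi-square per degree of freedom 0.905 to 0.967); each pair was summed and counted as 1 sample, so n = 2 per line. Standard errors came from the F statistics. Regions of the separate H3K27ac list were joined by an overlap of 1 bp or more. Tested on simulated H3K9me3 counts for D2 against B6, the fit recovered 37 of 50 regions lowered by 3 on the log2 scale and 18 of 50 lowered by 2, with 7 false calls over 74520 regions. Windows of 75 bases, taken every 25 bases within regions, were looked up in GRCm38.p6 on both strands, and genes came from GENCODE M21. Named regions were the 8 highest in B6, those with the largest differences in each comparison, up to 6 over coding exons and those nearest the thresholds; Spock3, Scpep1os, the second Cdan1 region, Lcor, Zfp933 and the chromosome 7 pair were named after their values were seen.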

Additional observations from a re-analysis of the deposited data

Results flagged for a closer look

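The contrast between the D2 and B6 segment of chromosome 13 differed in H3K27ac between the 2 backgrounds at 2 regions, by a test of the difference itself (B6-13D2 minus B6, less D2 minus D2-13B6). This was 2 of the 84 tested, where 5.25% of all tested regions off chromosomes 13, X and Y and 12.7% of those with 45 or more B6 reads were called, so the count stands below the background. In an intron of Zfp933, a zinc finger gene, at chr4:147841706-147842061, the difference was -2.58 on the log2 scale (edgeR adjusted p = 0.00629). H3K27ac reads there were 8, 24 and 19 in B6, 4, 8 and 7 in B6-13D2, 12, 8 and 9 in D2, and 4, 6 and 5 in D2-13B6, so both congenic lines were low. Over the non-coding exon of 4933406J10Rik, at chr7:82743374-82743943, it was 2.17 (edgeR adjusted p = 0.00777), with 3, 4 and 5 reads in B6, 20, 11 and 12 in B6-13D2, 18, 16 and 18 in D2, and 30, 21 and 27 in D2-13B6, so both congenic lines were above their background strain in mean level.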

How the results depend on the processing

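Counts of the 94 regions past the threshold were recomputed with other settings. A mean count of at least 20 left 7 regions tested for H3K9me3, and the calls were 6 between D2 and B6, 1 between B6-13D2 and B6 (a region other than the 6) and 0 between D2-13B6 and D2. With it, 31 regions differed in H3K27ac between D2 and B6. DESeq2's Wald test called 47 regions between D2 and B6, 1 between B6-13D2 and B6 and 0 between D2-13B6 and D2 for H3K9me3, out of 66, 55 and 35 with an adjusted p, and gave none for Plekha7 in the last 2. For H3K27ac it called 32 between D2 and B6 and 3 between B6-13D2 and B6. With no filter on low counts, 0 regions differed in H3K9me3 between D2-13B6 and D2. Causes were not tested beyond the smaller number of regions tested.

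Leaving out 1 library at a time gave 61 to 74 calls for H3K9me3 between D2 and B6, 2 to 5 between B6-13D2 and B6 and 0 to 1 between D2-13B6 and D2. For H3K27ac it gave 44 to 50, 6 to 11 and 3 to 6 in the same order, and 46 throughout in the separate lines. Correlations between same-numbered libraries ran from -0.0525 to 0.202 for H3K9me3 and from -0.0852 to 0.0539 for H3K27ac repeats. Both same-numbered H3K9me3 pairs of D2-13B6 and D2 were above 0.1 (0.202 and 0.120), and no other same-numbered pair was. Among differently numbered pairs, D2-13B6 replicate 3 with D2 replicate 2 gave 0.126 for H3K9me3. For H3K27ac, B6-13D2 replicate 2 with D2-13B6 replicate 1 gave 0.110. With 2 pairs the numbers were not taken as pairs. With the replicate number as a block the H3K9me3 calls were 75, 5 and 1 and the H3K27ac calls 51, 19 and 7, with 46 in the separate lines. Keeping all H3K27ac libraries separate gave 51, 19 and 7. Library totals moved the median H3K27ac log2 difference over all regions by -0.15 between D2 and B6 and by -0.14 between B6-13D2 and B6.

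The number of regions depended on the rule. At 60 or more B6 and 3 or fewer D2 reads 9 regions qualified, at 30 or more and 9 or fewer 425 did, and with counts scaled to the mean library size 160 did. D2 reads were present at 78 regions with a minimum of 5 reads and at 55 with 20, and at 42 of the 48 regions with an interval in the separate lines. The intervals did not always put a region in the same class as the repeated libraries. The Rhobtb1 neighbour, classed with few D2 reads, had 152, 190 and 156 D2 reads in its interval. A Gm21559 region, classed with D2 reads, had 3, 3 and 3. Of 1680 values at the 27 named regions, 1505 kept their direction and side of the threshold, 39 dropped below it, 9 rose past it, 36 kept their direction without an adjusted p, and 91 changed sign without being past the threshold with either setting. H3K9me3 counts of 0 to 5 in D2 limit how low a D2 level can be told from none.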
